A study of Homo sapiens with 12 samples.

Results

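HPPE was compared with tin protoporphyrin in SH-SY5Y cells, an established human neuroblastoma line with features of sympathetic neuron precursors. The comparison rests on 6 of the 12 RNA libraries of the series: 3 from wells given HPPE and 3 from wells given tin protoporphyrin, each compound at 5 µM for 5 h. Each well received 10 µL of stock in DMSO, and 3 libraries from wells given DMSO alone were the solvent control; 3 further libraries came from zinc protoporphyrin at the same dose and time. All 16366 genes that passed a filter on low counts, of 60710 in the table, were tested. The labels name no introduced gene or deletion, and they do not say whether the 3 libraries of a group came from separate cultures, so p-values measure only the spread between these libraries.

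Tin protoporphyrin is a heme analogue with tin in place of iron and is known as an inhibitor of heme oxygenase enzymes. The labels do not spell out HPPE, which belongs to a study of compounds that activate NRF2. NRF2, encoded by NFE2L2, is a transcription factor that KEAP1 holds back by targeting it for degradation. When KEAP1 is modified by oxidants or electrophiles, NRF2 accumulates, pairs with small MAF proteins and binds antioxidant response elements near genes for glutathione synthesis, thioredoxin reduction, NADPH supply and detoxification. BACH1 is a repressor that binds the same elements and is released by heme. HMOX1, which encodes the inducible heme oxygenase, answers to both factors.

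Higher with HPPE than with tin protoporphyrin were 27 of 69 tested NRF2 targets and 13 of 27 cytosolic chaperones, against 0.745% of all tested genes. All 69 and all 27 would have passed the filter on low counts without the HPPE libraries. Several metallothioneins were also higher, some of which were tested because of their counts with HPPE. HMOX1, 1 of the 27, was 47.4-fold higher, but only as a description, because tin protoporphyrin was chosen for its HMOX1 level. GCLM was 5.63-fold higher and TXNRD1 3.46-fold. Lower with HPPE were 0.709% of tested genes. They included the zinc importer SLC39A10, at 2.23-fold higher levels with tin protoporphyrin, the growth factor TGFB2, at 2.10-fold, and the chemokine CCL2, at 2.23-fold. SLC39A10 and TGFB2 kept their calls under all 23 alternative settings described below, and CCL2 under 16. In these bulk libraries, fewer cells of a type and less RNA per cell cannot be told apart.

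Total counts were 8002766, 8578158 and 3141853 in the HPPE libraries and 8329735, 9145399 and 6986518 in the tin protoporphyrin libraries, within 1337028 to 9145399 over the series. Of 10 markers of noradrenergic neuroblastoma cells, PHOX2A, HAND2, GATA3, ISL1, DBH, CHGA and CHGB had reads in every library, while TH, the first enzyme of catecholamine synthesis, was at 0 in 8 of 12 and at most 0.250 CPM (counts scaled to a library of 1000000). HBB was at 0 in all 12 libraries and PTPRC in 10. Tin protoporphyrin replicate 2 stood apart from its group. The chi-square per degree of freedom between its counts and those of replicate 1 was 17.3, against 1.11 between HPPE replicates 2 and 3, the smallest of 12 such values within groups. This value grows with depth, which differs among the pairs. The Pearson correlation of log2 CPM was 0.9929 between HPPE replicates 2 and 3 and 0.9935 between DMSO replicates 1 and 2. It was 0.975 between tin protoporphyrin replicates 1 and 2, 0.988 between 2 and 3 and 0.992 between 1 and 3. The lowest of the 12 was 0.965, between DMSO replicates 1 and 3. DMSO replicate 3 had 1514595 counts, and every value against DMSO below uses it. With HPPE replicates 2 and 3 summed as 1, 70 genes were called higher and 49 lower, against 122 and 116 below. Long transcripts had relatively high levels in tin protoporphyrin replicate 2 (Spearman correlation across genes of transcript length with the deviation from the gene mean 0.52). They had relatively low levels in tin protoporphyrin replicate 1 (-0.54) and in HPPE replicates 2 and 3 (-0.47 and -0.45).

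Genes were called at an adjusted p under 0.05, with adjustment over all 16366 genes. HPPE was higher than tin protoporphyrin for 122 genes (0.745% of those tested) and lower for 116 (0.709%), so that 1.45% of genes were called in all. At unadjusted p under 0.05 there were 2141 genes in either direction. The median log2 fold change, HPPE minus tin protoporphyrin throughout, was 0.00 over all tested genes. Among the called genes, 33 were at least 2-fold higher (0.202%) and 20 at least 2-fold lower (0.122%), and the median fold was 1.58 in the higher and 1.47 in the lower group. In the 122 and the 116 called genes alike, the 3 HPPE values did not overlap the 3 tin protoporphyrin values. Over all tested genes this held for 9.81% with HPPE higher and 10.1% with HPPE lower. The plot of fold change against level shows that the large increases ran up to abundant transcripts, whereas the largest decreases were of genes at low levels.

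**Figure D1:**
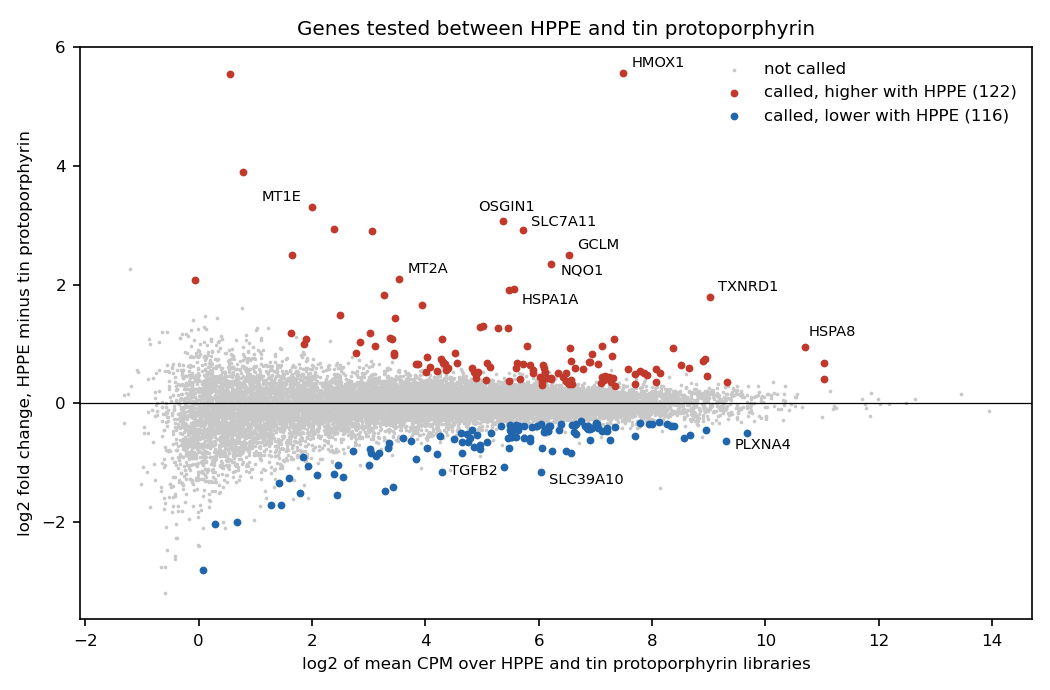
Log2 fold change between HPPE and tin protoporphyrin (vertical axis) against the log2 of the mean CPM over the 6 libraries (horizontal axis), 1 point per tested gene. Red points are the 122 genes called higher with HPPE and blue points the 116 called lower. HMOX1 lies far above the other abundant genes, with a log2 fold change of 5.57.

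Transcript length moved with the comparison. The median length was 3073.5 nucleotides for genes called higher, 5389 for genes called lower and 3327 for all tested genes. The Spearman correlation across 10918 genes of log2 fold change with length was -0.31, and 0.01 without tin protoporphyrin replicate 2; genes are not independent replicates. Without that library 99 genes were called higher and 81 lower, of which 86 and 70 were among the original calls. Other libraries moved the calls further: they fell to 54 higher and 37 lower without HPPE replicate 2, to 69 and 48 without HPPE replicate 3, and to 64 and 53 without tin protoporphyrin replicate 3. Removing HPPE replicate 1 left 91 and 63 calls, and removing tin protoporphyrin replicate 1 raised them to 166 and 176. Of the 122 and 116 calls, 51 and 27 were kept under every one of 23 alternative settings, and of the 33 and 20 genes at 2-fold or more, 22 and 6. The plot of calls by setting shows these counts.

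**Figure D2:**
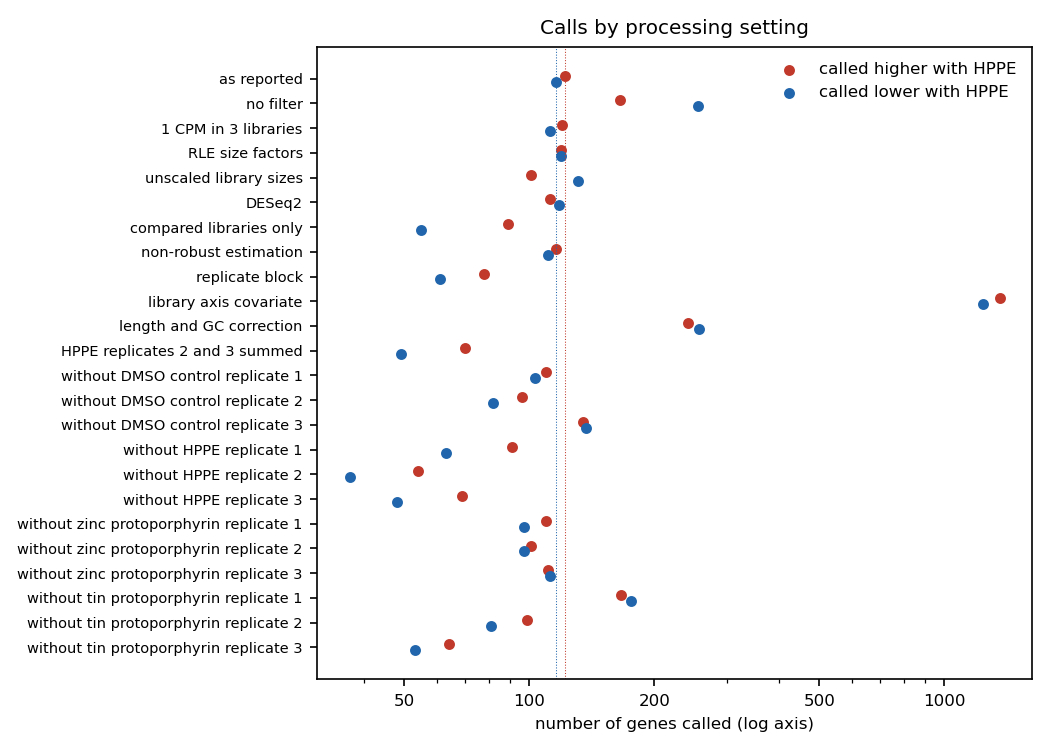
Number of genes called higher (red) and lower (blue) with HPPE on a log axis, for the reported fit in the top line and for each of 23 alternatives below it. The dotted lines mark the reported 122 and 116, and the counts ran from 54 and 37 without HPPE replicate 2 to 1357 and 1237 with a covariate for the main axis of library differences.

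HMOX1 stood at 332, 365 and 358 CPM in the HPPE libraries and at 7.97, 7.20 and 6.96 CPM in the tin protoporphyrin libraries. The DMSO libraries held 5.42, 4.62 and 7.66 CPM and the zinc protoporphyrin libraries 67.8, 43.3 and 29.8 CPM. Every HPPE library was above every library of the other groups, while the tin protoporphyrin values overlapped the range of the DMSO values. The log2 fold change between HPPE and tin protoporphyrin was 5.57 ± 0.19 (SE, n = 3 per group). No p is given for this gene, because tin protoporphyrin was chosen as the comparison partner for its HMOX1 level. Tin protoporphyrin minus DMSO was 0.47 ± 0.29 on the log2 scale, also as a description.

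Around heme oxygenase, the genes for handling the iron it frees also differed. Of 9 tested NRF2 targets in heme breakdown and in iron export or storage, 5 were called higher with HPPE and 0 lower, all 9 log2 fold changes were above 0, and their median was 0.66. HMOX1 is 1 of the 5. FTH1, the heavy chain of the iron store ferritin, had 397, 461 and 445 CPM with HPPE against 235, 218 and 228 CPM with tin protoporphyrin, a log2 difference of 0.93 ± 0.13 (adjusted p = 0.000441). FTL, the light chain, differed by 0.75 ± 0.13 (adjusted p = 0.00675). ABCB6, a porphyrin transporter, stood at 9.75, 11.9 and 12.3 CPM against 4.92, 4.50 and 5.43 CPM, a difference of 1.18 ± 0.21 (adjusted p = 0.00485). FECH, which inserts iron into protoporphyrin to make heme, differed by 0.66 ± 0.09 (adjusted p = 0.000613). For each of these genes the HPPE libraries lay above the tin protoporphyrin libraries without overlap. The call of FTL ended without HPPE replicate 2 or 3 or tin protoporphyrin replicate 3 (adjusted p 0.0513 to 0.0638), and that of ABCB6 without HPPE replicate 2 (adjusted p = 0.0578).

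Heme synthesis itself showed 2 of 10 tested genes higher and 0 lower. One was FECH and the other ALAS1, the first and rate-limiting enzyme, at 30.8, 36.0 and 34.8 CPM with HPPE and 22.3, 20.8 and 24.2 CPM with tin protoporphyrin. Its log2 fold change was 0.59 ± 0.11 (adjusted p = 0.0111). Each compound set against the same DMSO libraries gave 0.36 ± 0.12 for HPPE (adjusted p = 0.107) and -0.23 ± 0.12 for tin protoporphyrin (adjusted p = 0.400), so neither passed on its own. The call between the compounds ended without HPPE replicate 2 or 3 (adjusted p 0.0518 to 0.125). Among 14 tested genes of iron uptake and sensing, 1 was called, the transferrin receptor TFRC, which differed by 0.51 ± 0.07 (adjusted p = 0.000983).

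In glutathione synthesis, use and export, 5 of 18 tested genes were higher with HPPE and 0 lower, with a median of 0.25. SLC7A11, the subunit of the cystine importer that carries the substrate, stood at 100.0, 87.4 and 91.8 CPM with HPPE and 12.4, 13.6 and 10.7 CPM with tin protoporphyrin. The difference was 2.92 ± 0.23 on the log2 scale (adjusted p = 1.34e-06). GCLM, the modifier subunit of the enzyme that joins glutamate and cysteine, had 163, 156 and 154 CPM against 27.0, 29.7 and 27.1 CPM, a log2 difference of 2.49 ± 0.11 (adjusted p = 2.65e-10). The catalytic subunit GCLC rose by 0.68 ± 0.09 (adjusted p = 0.000432). GSR, which regenerates reduced glutathione, rose by 0.83 ± 0.07 (adjusted p = 2.81e-06).

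ABCC3, an exporter of glutathione and glucuronide conjugates, was also called higher with tin protoporphyrin than with DMSO. It stood at 53.4, 54.5 and 56.4 CPM with HPPE, 22.3, 20.6 and 25.3 CPM with tin protoporphyrin and 11.2, 10.3 and 12.1 CPM with DMSO. The 3 groups did not overlap. Its log2 fold change between the compounds was 1.27 ± 0.11 (adjusted p = 2.20e-06), and against the shared DMSO libraries it was 2.32 ± 0.13 for HPPE and 1.05 ± 0.13 for tin protoporphyrin (adjusted p = 0.000183). In the comparison of tin protoporphyrin with DMSO, 1.9% of tested genes were called higher and 0.379% lower. ABCC3 was the 1 member of this glutathione list called there.

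Among thioredoxin and peroxiredoxin genes, 3 of 13 tested were higher with HPPE and 0 lower. TXNRD1, which reduces thioredoxin with NADPH, was an abundant transcript with 767, 817 and 835 CPM in HPPE libraries and 231, 246 and 223 CPM in tin protoporphyrin libraries. It differed by 1.79 ± 0.09 (adjusted p = 2.55e-09). SRXN1, which repairs overoxidized peroxiredoxins, differed by 1.001 ± 0.22 (adjusted p = 0.0259) and kept its call under 13 of 23 alternatives. PRDX1, a peroxidase, differed by 0.69 ± 0.16 (adjusted p = 0.0460) and kept its call under 9. Leaving out 1 library ended the call of SRXN1 without HPPE replicate 1, 2 or 3 or tin protoporphyrin replicate 1, 2 or 3 (adjusted p 0.0515 to 0.163), and that of PRDX1 without HPPE replicate 2 or 3, tin protoporphyrin replicate 2 or 3, zinc protoporphyrin replicate 1, 2 or 3 or DMSO control replicate 2 (adjusted p 0.0618 to 0.254).

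NADPH supply showed 4 of 9 tested genes higher and 0 lower, with all 9 log2 fold changes above 0 and a median of 0.19. Without tin protoporphyrin replicate 2, 3 were called higher and 7 were above 0. ME1, the cytosolic malic enzyme, stood at 57.7, 61.9 and 66.8 CPM with HPPE and 25.6, 25.9 and 25.5 CPM with tin protoporphyrin, a log2 difference of 1.27 ± 0.12 (adjusted p = 6.71e-06). In the pentose phosphate pathway, TKT, a transketolase, rose by 0.50 ± 0.07 (adjusted p = 0.000983). PGD, an NADPH-producing enzyme of the same pathway, rose by 0.32 ± 0.07 (adjusted p = 0.0267), a call kept under 12 of 23 alternatives. It ended without HPPE replicate 1, 2 or 3, tin protoporphyrin replicate 1, 2 or 3 or DMSO control replicate 2 (adjusted p 0.0570 to 0.145).

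The detoxifying enzymes and other NRF2 targets held the most calls of these lists: 10 of 20 tested were higher and 0 lower, with a median of 0.67. NQO1, a quinone reductase, stood at 112, 126 and 133 CPM with HPPE and 29.3, 19.6 and 23.7 CPM with tin protoporphyrin, a difference of 2.35 ± 0.14 (adjusted p = 1.10e-08). OSGIN1, an oxidative stress response gene, had 68.8, 76.0 and 76.3 CPM against 9.03, 10.1 and 6.96 CPM and differed by 3.06 ± 0.16 (adjusted p = 2.55e-09). Both sets of HPPE values were far above all other libraries. The long noncoding RNA LUCAT1 differed by 2.91 ± 0.26 (adjusted p = 2.81e-06), and SQSTM1, the autophagy receptor p62 that also binds KEAP1, by 1.08 ± 0.08 (adjusted p = 5.57e-07). AKR1C3, an aldo-keto reductase with near-identical family members among which reads can be split, differed by 1.82 ± 0.23 (adjusted p = 0.000276). AIFM2, the ubiquinone reductase FSP1, rose by 0.84 ± 0.19 (adjusted p = 0.0294), a call that ended without HPPE replicate 2 or 3 or tin protoporphyrin replicate 2 or 3 (adjusted p 0.0517 to 0.233).

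Over the 5 lists of NRF2 targets together, 27 of 69 tested genes were higher with HPPE (39.1%, against 0.745% of all tested genes) and 0 lower, 62 were above 0, and the median was 0.42. At an unadjusted p under 0.05 there were 42 higher and 1 lower, and DESeq2 called 25 higher and 0 lower. Without tin protoporphyrin replicate 2, 21 were called higher, all of them among the 27. In that fit the heme breakdown and glutathione lists kept 5 each, the thioredoxin list 1 and the detoxifying list 7. HMOX1, on which the choice of comparison rests, is 1 of the 27. None of the genes for NRF2, KEAP1 and BACH1 passed. NFE2L2 stood at 52.0, 56.6 and 61.1 CPM with HPPE and 48.9, 43.3 and 49.96 CPM with tin protoporphyrin, a log2 difference of 0.25 ± 0.09 (adjusted p = 0.236) with a 95% interval of 0.07 to 0.42. KEAP1 differed by 0.36 ± 0.09 (adjusted p = 0.0516) and BACH1 by 0.33 ± 0.11 (adjusted p = 0.215), with intervals of 0.19 to 0.53 and 0.10 to 0.55. KEAP1 was called under 5 of 23 alternatives. Of 14 tested regulators and partners 1 was called, MAFG, a small MAF partner of NRF2 and BACH1, which rose by 0.45 ± 0.07 (adjusted p = 0.00297).

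**Figure D3:**
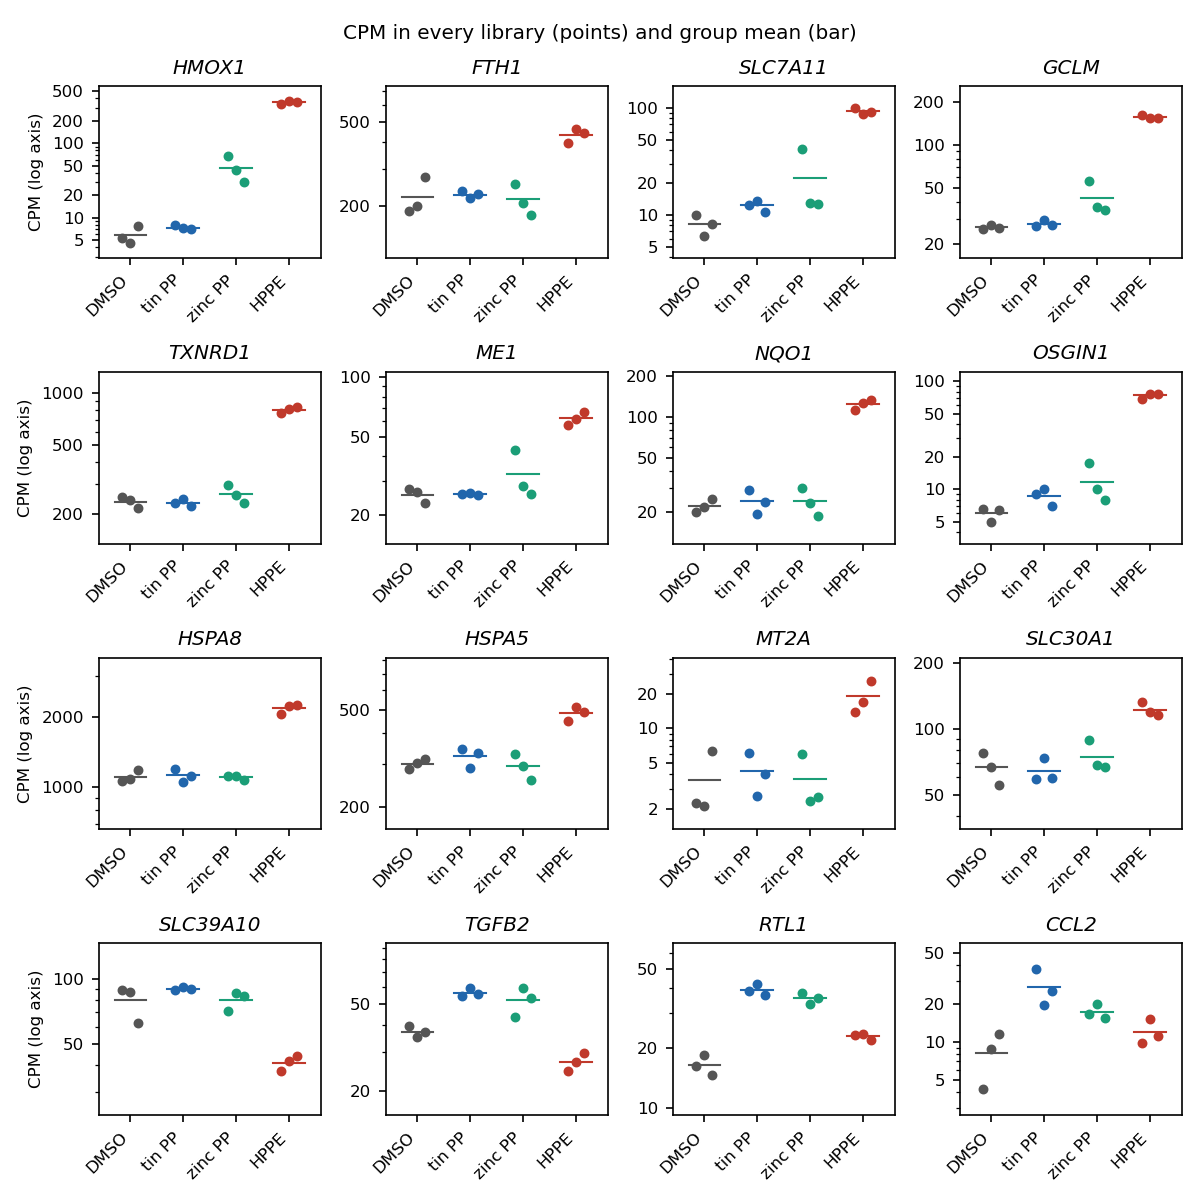
CPM in each of the 12 libraries (points, log axes) and group means (bars) for 16 genes, with tin PP and zinc PP for tin and zinc protoporphyrin. In the first 12 panels the HPPE libraries lie above the tin protoporphyrin libraries, and in the last 4 (SLC39A10, TGFB2, RTL1, CCL2) below them.

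Promoters were searched for the core of the antioxidant response element. In RefSeq promoter windows (GRCh38.p14, from 250 bases before to 50 after the gene start), TGACNNNGC was searched on both strands. It was found in 29 of 92 promoters of genes called higher (31.5%), in 12 of 82 of genes called lower (14.6%) and in 15.2% of 11346 promoters of tested genes. Of all 27305 promoters in the table, 13.6% held it. Of 56 promoters from tested genes of the NRF2 target lists, 16 held it (28.6%), and of the 18 whose genes were called higher, 9. The sequence TGACTCA, the AP-1 site, can overlap this core and was in 13.04% of promoters of genes called higher, 1.22% of those called lower, 2.997% of those tested and 4.92% of all in the table. In 6 of the 92 promoters of genes called higher, the antioxidant core itself contained TGACTCA. A match is a description of the sequence and shows no binding. In the promoters of OSGIN1 and SQSTM1, which were also called higher, the core was not found. The following promoters are shown 5′ to 3′ on the gene's strand, with the core in capitals. They were picked from genes higher with HPPE whose promoters hold the core, and do not stand for all genes that rose. They are GCLM (chr1:93909381-93909680, minus strand), TXNRD1 (chr12:104215529-104215828, plus strand) and ME1 (chr6:83431002-83431301, minus strand).
GCLM: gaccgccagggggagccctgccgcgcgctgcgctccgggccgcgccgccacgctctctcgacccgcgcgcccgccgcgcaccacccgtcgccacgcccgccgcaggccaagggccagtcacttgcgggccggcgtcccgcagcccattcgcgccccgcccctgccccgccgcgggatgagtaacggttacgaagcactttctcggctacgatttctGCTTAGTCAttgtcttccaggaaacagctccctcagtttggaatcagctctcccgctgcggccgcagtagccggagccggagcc
TXNRD1: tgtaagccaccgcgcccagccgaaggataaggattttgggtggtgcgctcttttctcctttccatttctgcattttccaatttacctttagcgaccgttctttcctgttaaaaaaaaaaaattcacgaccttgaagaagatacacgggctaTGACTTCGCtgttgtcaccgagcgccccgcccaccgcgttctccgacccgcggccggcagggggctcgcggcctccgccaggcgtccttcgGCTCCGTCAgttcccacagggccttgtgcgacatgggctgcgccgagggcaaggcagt
ME1: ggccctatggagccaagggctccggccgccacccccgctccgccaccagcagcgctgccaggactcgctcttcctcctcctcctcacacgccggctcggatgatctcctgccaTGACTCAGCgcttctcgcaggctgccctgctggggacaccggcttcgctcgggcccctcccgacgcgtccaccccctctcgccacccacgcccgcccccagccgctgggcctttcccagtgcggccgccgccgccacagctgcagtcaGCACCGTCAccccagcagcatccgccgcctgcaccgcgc
The core in GCLM lies 34 to 26 bases before the gene start and on the opposite strand. TXNRD1 and ME1 hold 2 cores each, and the core of ME1 that starts 137 bases before the gene start also contains the AP-1 site.

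Cytosolic chaperones of the heat shock response, which refold damaged proteins and are driven by the factor HSF1, were another group with many members that rose with HPPE. Of 27 tested, 13 were higher and 0 lower, 26 log2 fold changes were above 0 and the median was 0.54. HSPA8, the constitutive HSP70 protein, was among the most abundant transcripts that changed, at 2060.2, 2226 and 2246 CPM with HPPE and 1202, 1058 and 1117 CPM with tin protoporphyrin. It differed by 0.95 ± 0.08 (adjusted p = 2.81e-06). The inducible copies HSPA1A and HSPA1B differed by 1.93 ± 0.13 and 1.91 ± 0.17, but they are near-identical, so how reads were divided between them is uncertain. DNAJB4, a co-chaperone, stood at 41.6, 46.4 and 45.6 CPM against 18.9, 16.2 and 19.5 CPM, a difference of 1.29 ± 0.11 (adjusted p = 2.50e-06). HSPH1, a nucleotide exchange factor, rose by 0.71 ± 0.07 (adjusted p = 9.44e-06), DNAJB1 by 0.72 ± 0.08 (adjusted p = 7.98e-05) and the inducible HSP90 gene HSP90AA1 by 0.68 ± 0.09 (adjusted p = 0.000334). Summed over the list, the HPPE libraries held 10804 to 11140.1 CPM and the tin protoporphyrin libraries 7166 to 7280 CPM. Without tin protoporphyrin replicate 2, 13 genes of the list were called higher, 12 of them among the 13 above.

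The heat shock element was searched on both strands as GAA, TTC and GAA in a row with 2 unspecified bases between them. It was rare, in 0.361% of promoters of tested genes and 0.487% of all in the table. It was in 4 of the 92 promoters of genes called higher (4.35%), in 0 of the 82 of genes called lower, and in 4 of 23 promoters of the chaperone list. HSPA8 (chr11:123062087-123062386, minus strand) held it at 2 places, in capitals.
HSPA8: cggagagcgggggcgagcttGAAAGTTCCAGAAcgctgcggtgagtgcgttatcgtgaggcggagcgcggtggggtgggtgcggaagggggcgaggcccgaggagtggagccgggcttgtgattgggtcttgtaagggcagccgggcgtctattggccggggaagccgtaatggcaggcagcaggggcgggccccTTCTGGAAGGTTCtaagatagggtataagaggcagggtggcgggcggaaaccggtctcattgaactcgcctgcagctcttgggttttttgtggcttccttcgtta
In the other compartments the counts were lower. Among 11 mitochondrial chaperones and proteases, 1 was called, HSPD1, the matrix chaperonin HSP60, which rose by 0.45 ± 0.08 (adjusted p = 0.00357). Of 23 genes of the unfolded protein response of the endoplasmic reticulum, 2 were called higher and 0 lower, although all 23 log2 fold changes were above 0 and the median was 0.24. HSPA5, the main chaperone there, stood at 447, 511 and 491 CPM with HPPE and 345, 287 and 330.3 CPM with tin protoporphyrin, a difference of 0.59 ± 0.10 (adjusted p = 0.00277). HSP90B1, the HSP90 protein of that compartment, rose by 0.36 ± 0.08 (adjusted p = 0.0275), a call kept under 14 of 23 alternatives. It ended without HPPE replicate 2 or 3, tin protoporphyrin replicate 1, 2 or 3 or DMSO control replicate 2 (adjusted p 0.0515 to 0.206). Of 34 tested ATF4 targets, the stress genes of amino acid supply, 0 were called by edgeR or DESeq2 in either direction, 2 were higher at an unadjusted p under 0.05, and the median was 0.02. The smallest p among them was that of ATF5, at 0.51 ± 0.13 (adjusted p = 0.0694).

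Metallothioneins, small proteins that bind zinc and copper and are induced through the metal-sensing factor MTF1, also gave large folds. The filter kept genes that reached 1.27 CPM in at least 3 libraries, and 8 of the 14 listed metallothionein and zinc genes passed it. MT1E and MT1G did so only through the HPPE libraries, and the other 6 would have passed without them. Of the 8 tested genes 6 were higher and 1 lower with HPPE. Of the 6 that would have passed without the HPPE libraries, 4 were higher and 1, SLC39A10, was lower. The median of the 8 was 2.29, which describes the tested members only and includes MT1E and MT1G. MT2A stood at 14.01, 17.1 and 26.0 CPM with HPPE and 6.10, 2.59 and 4.04 CPM with tin protoporphyrin, a log2 difference of 2.09 ± 0.30 (adjusted p = 0.000708). Its HPPE values varied more among themselves than those of HMOX1 but stayed above all 3 tin protoporphyrin values. MT1E stood at 4.63, 8.04 and 9.18 CPM against 1.05, 0.675 and 0.278 CPM, a difference of 3.31 ± 0.44 in a gene that was tested because of its HPPE counts. MT1X differed by 2.94 ± 0.43 (adjusted p = 0.00102) and MT1F by 2.50 ± 0.43 (adjusted p = 0.00394). MT1G had 24, 33 and 9 counts with HPPE and 1, 2 and 2 counts with tin protoporphyrin, all under a floor of 3 counts per library, so it was at least 8.76-fold higher. The call of MT1F ended without HPPE replicate 2 (adjusted p = 0.0657), and that of MT1G without HPPE replicate 1 or 2 or tin protoporphyrin replicate 1, 2 or 3 (adjusted p 0.0505 to 0.124). These genes are close copies of each other, and the division of reads among them is uncertain.

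The zinc transporters moved in opposite directions. SLC30A1, the zinc exporter of the plasma membrane and an MTF1 target, stood at 133, 119 and 115 CPM with HPPE and 59.2, 73.9 and 59.4 CPM with tin protoporphyrin, and rose by 0.93 ± 0.12 (adjusted p = 0.000245). The importer SLC39A10 stood at 37.3, 41.5 and 44.0 CPM with HPPE and 89.1, 91.6 and 90.2 CPM with tin protoporphyrin. It fell, with a log2 difference of -1.15 ± 0.11 (adjusted p = 5.04e-06), the smallest p among genes lower with HPPE. Both genes kept their calls under all 23 alternatives. The core of the metal response element, TGCACNC or TGCGCNC on either strand, was chosen after these values were seen. It was in 41.3% of promoters of genes called higher, 37.8% of those called lower, 39.1% of those tested and 29.3% of all in the table. The MT2A promoter (chr16:56608334-56608633, plus strand) is shown for its 8 matches, in capitals.
MT2A: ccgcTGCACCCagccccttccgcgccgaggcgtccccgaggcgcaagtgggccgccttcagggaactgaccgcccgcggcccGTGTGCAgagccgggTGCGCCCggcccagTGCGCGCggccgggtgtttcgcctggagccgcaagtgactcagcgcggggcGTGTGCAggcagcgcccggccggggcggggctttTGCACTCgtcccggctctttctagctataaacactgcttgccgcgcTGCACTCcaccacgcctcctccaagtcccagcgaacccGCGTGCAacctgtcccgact

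Among the genes lower with HPPE, each compound's value against the shared DMSO libraries shows where the difference lay. In HPPE against DMSO 2.57% of tested genes were called higher and 1.47% lower. SLC39A10 was lower with HPPE than with DMSO, at -1.02 ± 0.11, while tin protoporphyrin gave 0.13 ± 0.10 (adjusted p = 0.614). TNS3, a focal adhesion protein, gave -0.59 ± 0.10 with HPPE (adjusted p = 0.00255) and 0.16 ± 0.10 with tin protoporphyrin (adjusted p = 0.471), and FAM124A gave -0.67 ± 0.11 (adjusted p = 0.00169) and 0.17 ± 0.10 (adjusted p = 0.487). Between the compounds TNS3 differed by -0.75 ± 0.10 (adjusted p = 0.000321) and FAM124A by -0.84 ± 0.11 (adjusted p = 0.000245).

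TGFB2, a secreted transforming growth factor, was called in opposite directions by the 2 compounds. Its levels were 24.8, 27.0 and 29.8 CPM with HPPE, 39.7, 35.2 and 37.0 CPM with DMSO and 54.4, 58.8 and 55.5 CPM with tin protoporphyrin, and the 3 groups did not overlap. Against DMSO it fell with HPPE, at -0.48 ± 0.11 (adjusted p = 0.0213), and rose with tin protoporphyrin, at 0.59 ± 0.10 (adjusted p = 0.00382). The difference between the compounds was -1.07 ± 0.10 (adjusted p = 8.41e-06).

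For other genes lower with HPPE, tin protoporphyrin stood above DMSO. RTL1, an imprinted gene derived from a retrotransposon, had 23.3, 23.4 and 21.8 CPM with HPPE, 38.8, 42.1 and 37.2 CPM with tin protoporphyrin and 16.3, 18.3 and 14.7 CPM with DMSO, so HPPE lay between the others. The difference between the compounds was -0.78 ± 0.10 (adjusted p = 0.000320), with 0.44 ± 0.12 for HPPE and 1.22 ± 0.11 for tin protoporphyrin against DMSO. CCL2, a chemokine that attracts monocytes, stood at 9.75, 15.1 and 11.1 CPM with HPPE, 37.3, 19.5 and 24.9 CPM with tin protoporphyrin and 4.23, 8.71 and 11.5 CPM with DMSO. It differed by -1.16 ± 0.25 (adjusted p = 0.0255), a call kept under 16 of 23 alternatives. EPPK1, a cytoskeletal linker, differed by -1.41 ± 0.28 (adjusted p = 0.0145), NIPAL4, a magnesium transporter, by -1.21 ± 0.25 (adjusted p = 0.0151), and MAMLD1 by -1.19 ± 0.20 (adjusted p = 0.00391). Against DMSO, tin protoporphyrin gave 1.98 ± 0.32, 2.29 ± 0.30 and 1.11 ± 0.21 for these genes, each called higher, and HPPE gave 0.57 ± 0.37, 1.08 ± 0.36 and -0.08 ± 0.25, none called. Between the compounds the call of CCL2 ended without HPPE replicate 1 or 3 or tin protoporphyrin replicate 1 or 3 (adjusted p 0.0639 to 0.160), that of EPPK1 without HPPE replicate 2 (adjusted p = 0.163) and that of NIPAL4 without HPPE replicate 1 or 2 or tin protoporphyrin replicate 3 (adjusted p 0.0852 to 0.115).

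COL1A2, a chain of type I collagen, was also called higher with tin protoporphyrin than with DMSO. It stood at 3.38, 3.84 and 3.48 CPM with HPPE, 6.68, 7.87 and 7.65 CPM with tin protoporphyrin and 4.10, 3.30 and 3.19 CPM with DMSO, so HPPE and DMSO overlapped. Its log2 fold change between the compounds was -1.04 ± 0.18 (adjusted p = 0.00591). It is also a marker of mesenchymal cells, a state that neuroblastoma lines can hold. Of 14 tested markers of such cells 1 was called lower with HPPE, COL1A2, and 0 higher. At an unadjusted p under 0.05 there were 2 higher and 1 lower, and 3 of the 14 log2 fold changes were above 0. SNAI2 stood at 24.0, 21.4 and 21.8 CPM with HPPE and 17.8, 15.7 and 17.7 CPM with tin protoporphyrin. PDGFRB stood at 163, 157 and 158 CPM against 151, 137 and 142 CPM. The summed level of that list was 2278 to 2307 CPM with HPPE and 2399 to 2501 CPM with tin protoporphyrin, PRRX1 was at 0 in 11 of 12 libraries, and the part of these cells in the result was not tested.

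The remaining members of the 10 largest decreases need care. SLC5A7, the choline transporter of cholinergic neurons, stood at 1.501, 1.98 and 1.90 CPM with HPPE and 4.92, 5.51 and 4.87 CPM with tin protoporphyrin, a difference of -1.52 ± 0.25 (adjusted p = 0.00271). RN7SL3, which differed by -1.54 ± 0.28 (adjusted p = 0.00683), belongs to a repeated RNA family whose reads can be split among copies. SLIT3-AS2 differed by -1.49 ± 0.28 (adjusted p = 0.00999) and is antisense to SLIT3. How strand was used in counting is not given in the sources used here, so its reads and those of SLIT3 cannot be told apart. The call of RN7SL3 ended without HPPE replicate 2 (adjusted p = 0.0999) and that of SLIT3-AS2 without HPPE replicate 2 (adjusted p = 0.123). The unnamed gene ENSG00000279555 differed by -1.25 ± 0.30 (adjusted p = 0.0448), a call kept under 12 of 23 alternatives. It ended without HPPE replicate 1, 2 or 3, tin protoporphyrin replicate 2 or 3, zinc protoporphyrin replicate 1 or DMSO control replicate 1 or 2 (adjusted p 0.0534 to 0.346).

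**Figure D4:**
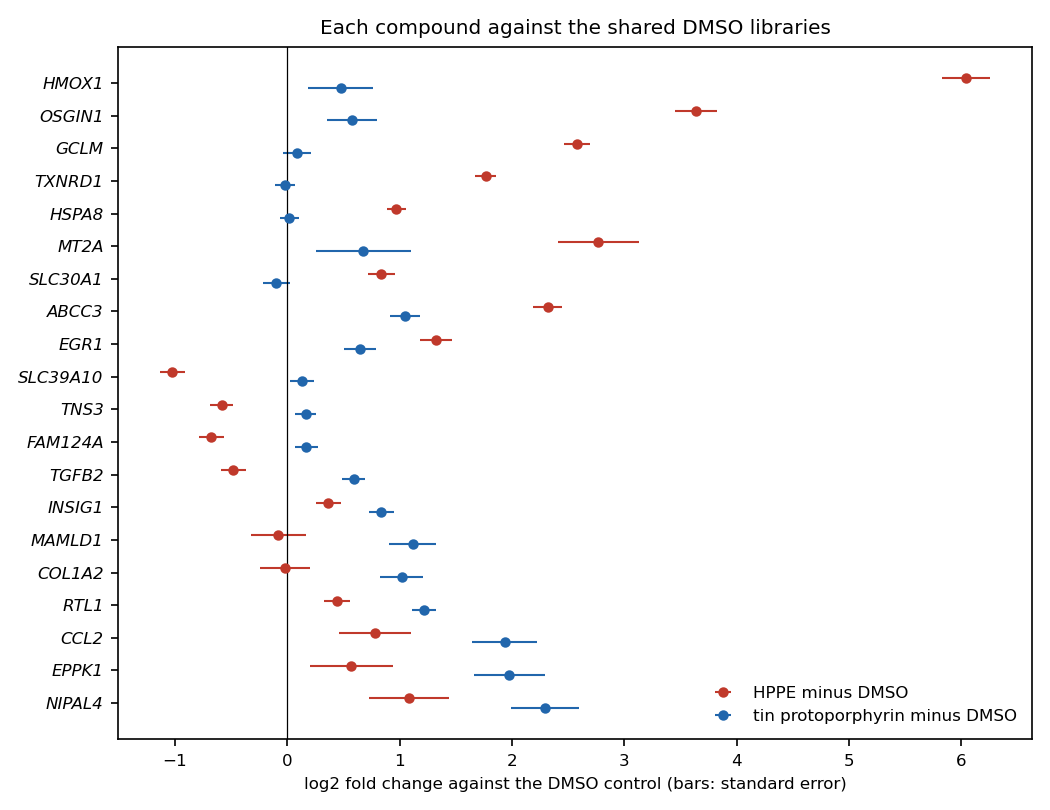
Log2 fold change of HPPE (red) and tin protoporphyrin (blue) against the same 3 DMSO libraries, with standard errors, for 20 named genes. The first 9 are higher with HPPE than with tin protoporphyrin and the last 11 lower, and TGFB2 lies on opposite sides of 0, at -0.48 and 0.59.

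EGR1, an immediate early transcription factor, rose with both compounds and more with HPPE. It stood at 42.5, 41.0 and 42.1 CPM with HPPE, 23.9, 26.9 and 27.7 CPM with tin protoporphyrin and 16.5, 18.7 and 11.5 CPM with DMSO. The compounds differed by 0.68 ± 0.13 (adjusted p = 0.00806), with 1.32 ± 0.14 for HPPE and 0.64 ± 0.14 for tin protoporphyrin against DMSO. It was the 1 gene called among 18 tested AP-1 and immediate early genes. In the BMP and TGF-beta list, 2 of 19 tested genes were higher, among them the decoy receptor BAMBI (0.43 ± 0.10, adjusted p = 0.0402), and 1 lower, TGFB2. The call of EGR1 ended without HPPE replicate 2 (adjusted p = 0.0515), and that of BAMBI without HPPE replicate 1, 2 or 3, tin protoporphyrin replicate 2 or 3, zinc protoporphyrin replicate 1 or 2 or DMSO control replicate 2 (adjusted p 0.0562 to 0.299).

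Several pathways gave few or no calls between the compounds although each compound had calls against DMSO in them. Of 22 tested genes of the actin cytoskeleton and of SRF and YAP targets, 0 were called by edgeR or DESeq2 between HPPE and tin protoporphyrin, 2 were higher and 2 lower at an unadjusted p under 0.05, and the median was 0.05. Against DMSO, HPPE gave 16 higher and 1 lower with a median of 0.64, and tin protoporphyrin gave 15 higher with a median of 0.59. Both comparisons use the same DMSO libraries. CRIM1 came nearest to a call between the compounds, at -0.44 ± 0.12 (adjusted p = 0.0997). Of 20 genes of feedback on MAPK signalling, 0 were called by edgeR or DESeq2 between the compounds (unadjusted p under 0.05: 1 higher, 2 lower), against 7 higher and 1 lower for HPPE and 8 higher and 1 lower for tin protoporphyrin. Of 30 tested genes of sterol and fatty acid synthesis, 1 was lower with HPPE and 23 log2 fold changes were not above 0, with a median of -0.08. The called gene was INSIG1, the sterol-regulated anchor of SCAP, at 38.9, 37.9 and 39.9 CPM with HPPE and 60.2, 51.1 and 49.96 CPM with tin protoporphyrin, a difference of -0.47 ± 0.10 (adjusted p = 0.0232). The call of INSIG1 ended without HPPE replicate 1, 2 or 3 or tin protoporphyrin replicate 1 (adjusted p 0.0602 to 0.165). Against DMSO that list gave 5 higher with HPPE and 9 higher with tin protoporphyrin.

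In autophagy and lysosome function, 4 of 38 tested genes were higher and 0 lower. Beside SQSTM1 they were GABARAPL1, which helps to form autophagosomes (1.09 ± 0.21, adjusted p = 0.0129), the lysosomal enzyme GLA (0.67 ± 0.13, adjusted p = 0.00950) and TFE3, a transcription factor for lysosomal genes (0.51 ± 0.10, adjusted p = 0.0151). Of 17 hypoxia-induced genes 1 was higher, PFKFB3, an activator of glycolysis (0.60 ± 0.09, adjusted p = 0.000830), while 0 of 17 glycolytic enzymes were called by edgeR or DESeq2 (4 higher at an unadjusted p under 0.05). Of 39 proteasome genes 1 was higher, PSMC2 (0.35 ± 0.08, adjusted p = 0.0429), a call kept under 11 of 23 alternatives. It ended without HPPE replicate 2 or 3, tin protoporphyrin replicate 2 or 3, zinc protoporphyrin replicate 1 or 2 or DMSO control replicate 1 or 2 (adjusted p 0.0556 to 0.270). The call of GLA ended without HPPE replicate 2 or tin protoporphyrin replicate 3 (adjusted p 0.0630 to 0.0822), that of GABARAPL1 without HPPE replicate 2 or 3 or tin protoporphyrin replicate 3 (adjusted p 0.0637 to 0.0944) and that of TFE3 without HPPE replicate 2 or 3 or tin protoporphyrin replicate 3 (adjusted p 0.0568 to 0.102).

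Of 19 tested noradrenergic factors and enzymes 1 was lower with HPPE, the receptor tyrosine kinase RET, at 117, 123 and 111 CPM with HPPE and 157, 166 and 163 CPM with tin protoporphyrin (-0.47 ± 0.10, adjusted p = 0.0175). Of 20 neuronal cytoskeleton and synapse genes, 0 were called by edgeR or DESeq2, with 4 higher and 1 lower at an unadjusted p under 0.05. The neurofilament gene NEFH came nearest, at 0.33 ± 0.09 (adjusted p = 0.0976). Of 29 tested axon guidance genes, SEMA6D was higher (0.55 ± 0.12, adjusted p = 0.0211), and PLXNA4 (-0.63 ± 0.14, adjusted p = 0.0262) and SLIT3 (-0.45 ± 0.10, adjusted p = 0.0262) were lower. SLIT3 shares the doubt on strand with its antisense gene. The call of RET ended without HPPE replicate 1, 2 or 3 or tin protoporphyrin replicate 3 (adjusted p 0.0657 to 0.126), that of SEMA6D without HPPE replicate 2 or 3 or tin protoporphyrin replicate 2 or 3 (adjusted p 0.0733 to 0.155), that of PLXNA4 without HPPE replicate 1, 2 or 3 or tin protoporphyrin replicate 2 or 3 (adjusted p 0.0554 to 0.153) and that of SLIT3 without HPPE replicate 1, 2 or 3, tin protoporphyrin replicate 2 or 3 or DMSO control replicate 2 (adjusted p 0.0535 to 0.171). The median of the axon guidance list was -0.15. It was -0.06 without tin protoporphyrin replicate 2 and -0.23 without tin protoporphyrin replicate 1. Its genes are long, with a median transcript of 7094 nucleotides. With the correction for length and GC content the median was -0.13, with 1 gene called higher and 6 lower.

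Small shifts over whole complexes moved in opposite directions without tin protoporphyrin replicate 2 and without replicate 1. Of 79 ribosomal protein genes 0 were called by edgeR or DESeq2 and 2 were higher at an unadjusted p under 0.05, but 78 were above 0 with a median of 0.16, which was 0.09 without tin protoporphyrin replicate 2, with 73 above 0, and 0.27 without replicate 1. Of 74 nuclear-encoded respiratory chain genes 0 were called by either tool and 2 were higher at an unadjusted p under 0.05, 65 were above 0 and the median was 0.14, which was 0.03 without tin protoporphyrin replicate 2, with 47 above 0, and 0.31 without replicate 1. Among 25 p53 targets, 23 S phase genes, 24 mitosis genes, 20 circadian clock genes and 13 genes of mitochondrial DNA, 0 were called in either direction by edgeR or DESeq2. At an unadjusted p under 0.05 there were 2 higher and 3 lower p53 targets, 2 higher mitosis genes, 3 lower clock genes and 0 in the S phase and mitochondrial lists. Over all pathway lists, 61 of the 122 genes called higher belonged to at least 1 list, and 6 of the 116 called lower. All 36 lists, with the marker lists, name 835 symbols, beside 16366 tested genes. The 835 include untested genes and markers, so they give no exact base for the 61 and the 6. The difference between those 2 counts was not tested. The lists were chosen with earlier results of these data known, so these counts also reflect that choice. The plot of lists shows both the few strong groups and the many lists centred near 0.

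**Figure D5:**
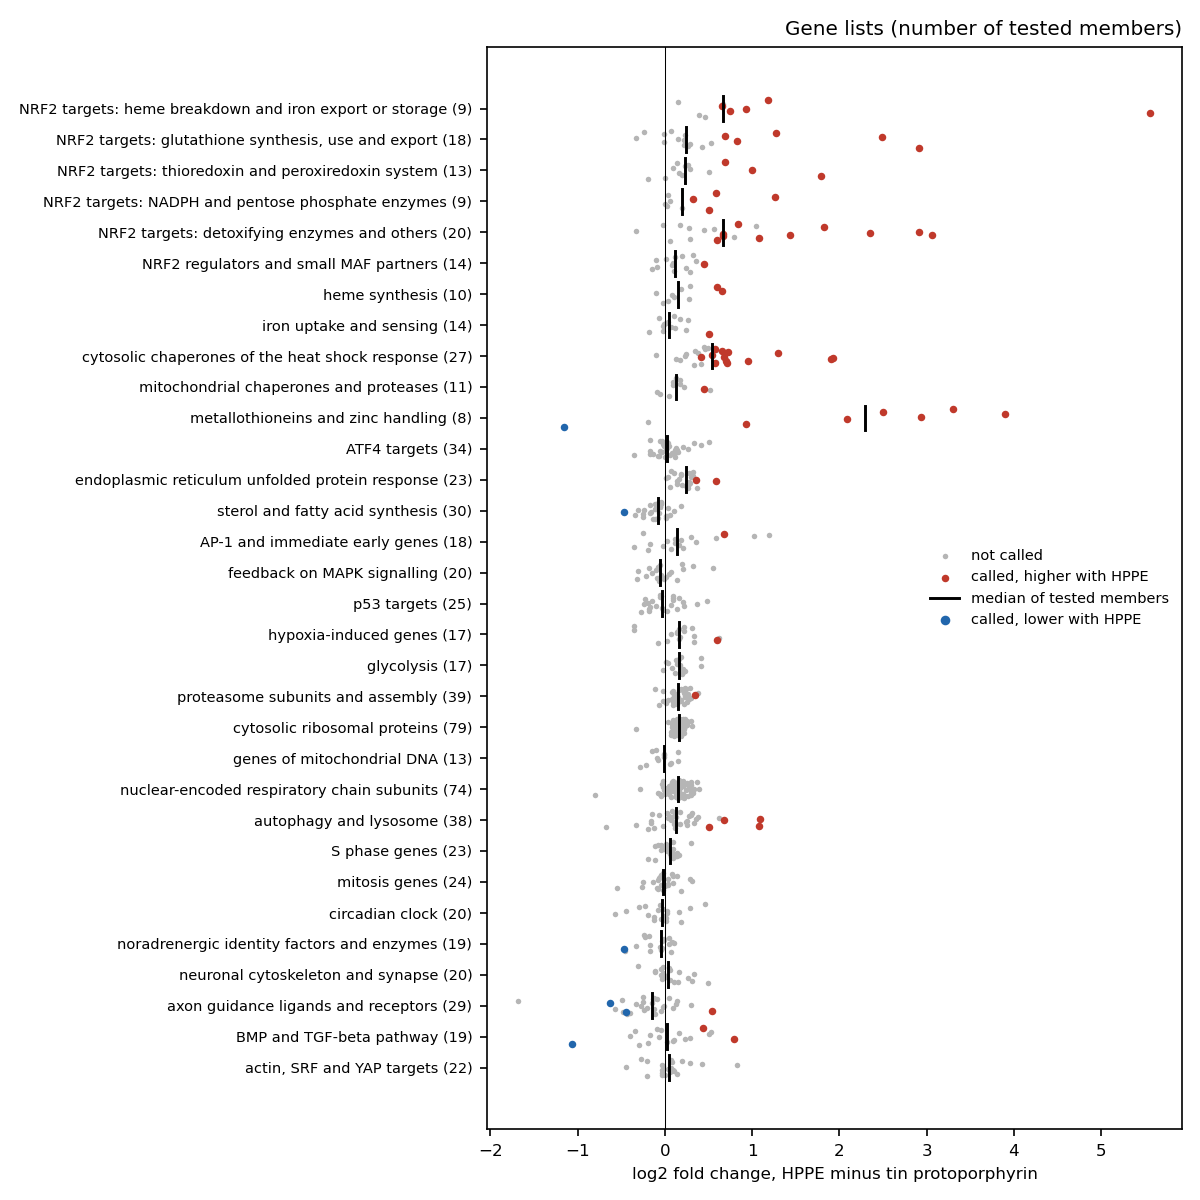
Log2 fold change between HPPE and tin protoporphyrin (horizontal axis) for each tested member of the pathway lists, with the number of tested members in brackets. Red and blue points were called higher and lower, grey points were not called, and black bars are medians. Among the lists plotted, medians ran from 2.29 for the metallothionein and zinc list to -0.15 for axon guidance. The metallothionein and zinc list holds MT1E and MT1G, which were tested because of their HPPE counts. The aryl hydrocarbon receptor list and the marker lists of other cell types are not plotted.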

How the data were processed

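RNA from SH-SY5Y cells was sequenced as mRNA libraries, per the labels' protocols made with an MGIEasy kit. The values the authors deposited are whole-number read counts of each gene without normalization. The submitters' processing notes name fastp 0.21.1, STAR 2.7.7a, featureCounts and the genome build GRCh38; the annotation release and the strand setting are not given in the sources used here. Of 60710 Ensembl identifiers, 60481 matched a symbol. Total counts ran from 1337028 to 9145399 per library, which limits the precision of genes near 1 CPM in shallow libraries, and the floor of 3 counts covers counting error only.

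Genes were kept with filterByExpr by group, which left 16366 genes with 99.6% of counts. All 12 libraries entered a single fit, with 1 mean for each group, in edgeR 4.0.16 in R 4.3.3 (TMM scaling, glmQLFit with robust estimation), so that all groups shared 1 estimate of the spread. HPPE was tested against tin protoporphyrin with glmQLFTest, two-sided, with Benjamini-Hochberg adjustment over all tested genes and calls at 0.05. Standard errors come from the F statistic, and CPM values are TMM-scaled. The replicate numbers were not treated as pairs, as no pairing is stated in the sources used here. Transcript lengths and GC content came from GENCODE release 29, which need not be the authors' annotation. Promoter sequences are from RefSeq.

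The members and the 36 gene lists were chosen with earlier results of these data known, and no list was given a test of its own. Named genes were HMOX1, NFE2L2, KEAP1 and BACH1; up to 4 called members of each list with the smallest p, or else the 1 member with the smallest p; the 10 largest changes each way among called genes without overlap and with a mean of at least 5 CPM in one group; and the 5 smallest p each way. Of the genes that entered as the smallest p of a list without calls, not all are described, and some genes of the lists are not reported here. FTL, GCLC, AKR1C3, AIFM2, HSPH1, DNAJB1, HSP90AA1, MT1G and the genes under the other observations were named after their values were seen. The 23 alternatives were other filters, scalings and estimators, DESeq2 1.42.0, the compared libraries alone, a replicate block, a library axis as covariate (the first principal component of deviations from group means), a correction for length and GC content, HPPE replicates 2 and 3 summed, and each library left out. The procedure was tested on simulated counts drawn independently for each library. They lacked the library axis of these data, so that simulation does not cover its effect on the calls.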

Additional observations from a re-analysis of the deposited data

How the results depend on the processing

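The reported counts were 122 genes higher and 116 lower with HPPE, 33 and 20 of them by at least 2-fold. The replicate block gave 78 and 61, with 13 at least 2-fold lower. Same-numbered HPPE and tin protoporphyrin libraries did not deviate together (correlations of -0.59, -0.31 and 0.06). These correlations cannot exclude a pairing, and the numbers were not treated as pairs. HPPE replicates 2 and 3 summed gave 70 and 49. The compared libraries alone gave 55 lower, 13 of them by 2-fold. No filter gave 255 lower, 53 of them by 2-fold. The correction for length and GC content gave 241 and 257. The library axis as covariate gave 1357 and 1237, with 50 and 124 at 2-fold. Leaving out 1 library gave 54 to 166 higher and 37 to 176 lower, and at 2-fold 24 to 33 and 10 to 33. DESeq2 gave 112 and 118. The cause of these moves was not tested. No named gene reversed its direction: of the named genes' values under the alternatives, 1610 kept their side of the threshold, 164 fell short of it and 18 newly passed it. Lists with a median near 0 did change sign under some alternatives. The median ran from -0.07 to 0.05 for p53 targets and from -0.04 to 0.06 for actin, SRF and YAP targets. List counts moved as well, as from 1 to 13 called higher for the unfolded protein response of the endoplasmic reticulum. With HPPE replicate 2 left out 27 named genes fell short, the most of any setting, and with the replicate block 15. Depth limits genes near the floor of 3 counts, which is 0.337 CPM in the deepest library and 2.26 CPM in the shallowest.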

Other observations

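The genes described here lie outside the pathway lists and were picked after their values were seen. VCAM1, an adhesion molecule for leukocytes, stood at 1.0004, 1.398 and 1.58 CPM with HPPE and 3.87, 5.51 and 3.06 CPM with tin protoporphyrin, a log2 fold change of -1.71 ± 0.31 (adjusted p = 0.00666). BIRC3, an inhibitor of apoptosis, stood at 0.625, 1.51 and 1.27 CPM against 3.52, 4.39 and 3.20 CPM and differed by -1.72 ± 0.34 (adjusted p = 0.0142). TRAF1, an adaptor of TNF receptors, had 9.13, 11.1 and 8.87 CPM with HPPE, 19.3, 20.7 and 16.6 CPM with tin protoporphyrin and 3.44, 6.07 and 7.02 CPM with DMSO. It differed by -0.94 ± 0.17 between the compounds (adjusted p = 0.00621) and was called higher than DMSO with each of them, at 0.97 ± 0.22 for HPPE and 1.91 ± 0.20 for tin protoporphyrin. For VCAM1 the values against DMSO were -0.72 ± 0.38 and 0.99 ± 0.29, neither called. BIRC3 was called higher with tin protoporphyrin, at 1.86 ± 0.37. VCAM1 and BIRC3 were at few CPM, and each kept its call under 21 of 23 alternatives. The call of VCAM1 ended without HPPE replicate 1 or 2 (adjusted p 0.0515 to 0.0622), and that of BIRC3 without HPPE replicate 1 or tin protoporphyrin replicate 2 (adjusted p 0.0505 to 0.106).

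TGFB3, a relative of TGFB2, was also lower with HPPE, at 4.88, 5.71 and 5.07 CPM against 12.1, 10.8 and 9.60 CPM with tin protoporphyrin. Its log2 fold change was -1.04 ± 0.16 (adjusted p = 0.00154). Against DMSO it was lower with HPPE, at -1.27 ± 0.17 (adjusted p = 0.000175), and tin protoporphyrin gave -0.23 ± 0.15 (adjusted p = 0.520). HTRA3, a secreted serine protease, had 23, 20 and 11 counts with HPPE and 1, 0 and 0 with tin protoporphyrin, and passed the count filter through the HPPE libraries alone. Against the floor of 3 counts per library it was at least 7.85-fold higher with HPPE.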
